A study of Homo sapiens with 8 samples.

Results

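Sterol and fatty acid synthesis is described here through 36 genes of the 11530 in the expression table of MonoMac 6, an established human cell line derived from an acute monocytic leukaemia. The genes were taken by symbol, from 38 symbols that name the enzymes of cholesterol and fatty acid synthesis and the factors that control them. The other 2 symbols are older names that the table did not use. The sterol set held 21 genes and the fatty acid set 15. RNA was sequenced from 4 libraries of cells given 100 ng/mL of human APRIL for 24 h and from 4 control libraries without APRIL. APRIL, the product of TNFSF13, is a secreted ligand of the TNF family, and the series examines how it acts on acute myeloid leukaemia cells. The line was kept in RPMI that held 10% foetal serum, and unnamed baseline cytokines were in the medium of both groups. The APRIL cells were treated in RPMI without serum. The labels do not say whether the control cells were moved to serum-free medium too, so an effect of serum and an effect of APRIL cannot be told apart. The labels do not say either whether the libraries came from separate cultures of this 1 line, so the p-values measure the spread between libraries, which may be technical.

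As background, cells build cholesterol from acetyl-CoA through mevalonate, farnesyl units, squalene and lanosterol, and fatty acids from acetyl-CoA through malonyl-CoA and palmitate. Most of the genes are targets of the SREBP transcription factors, membrane proteins that are carried from the endoplasmic reticulum to the Golgi and cut there when sterols are scarce. INSIG proteins hold them back when sterols are plentiful, and lipoproteins in serum are a source of sterol for cultured cells. SREBP-2, from SREBF2, acts mainly on sterol genes, and the SREBP-1 forms, from SREBF1, act mainly on fatty acid genes, SREBP-1c in part through the oxysterol receptor LXR.

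No gene of either set passed the test between APRIL and control. Over all libraries the medians of the sets lay on opposite sides of 0: 12 of 21 sterol genes had a higher mean with APRIL, with a median difference of 0.08, and 2 of 14 tested fatty acid genes did, with a median of -0.16. Each difference below is the mean log2 value of the APRIL libraries minus that of the control libraries, and the ± is limma's standard error over 4 libraries a group. Across all 11257 genes tested 49.3% had a higher mean with APRIL and the median difference was -0.0053. The sterol median exceeded the fatty acid median by 0.24. Of the libraries farthest from the rest, leaving out APRIL column 3 gave a gap of 0.072, leaving out control column 1 a gap of 0.15, and leaving out both a gap of 0.036. It was 0.070 with libraries weighted by quality and 0.051 once each library's trends with transcript length and GC content were removed.

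With limma and Benjamini-Hochberg adjustment 0 of the 35 tested members had an adjusted p under 0.05, as did 0% of all genes, where the smallest adjusted p was 0.40. At an unadjusted p under 0.05 there were 3 members, TM7SF2 and HSD17B7 on the higher side and ME1 on the lower, against 11.9% of all genes (6.25% higher and 5.69% lower). Neither voom on recovered reads nor any single library left out gave a call among all genes, while library quality weights called 4 genes, none of them a member. The APRIL and control values did not overlap in 3 members: HSD17B7 lay higher with APRIL, and SCD and ELOVL5 lay lower. Of all genes 7.81% did not overlap, 3.62% on the higher and 4.19% on the lower side. The counts of members lie near these shares of all genes. The 95% intervals of the members reached a median of 0.36 to either side of the difference, with a range of 0.23 to 0.82, so smaller differences were not resolved.

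The depth differed between libraries. The 4 APRIL columns held 2840146, 5319791, 929816 and 3164930 recovered reads, and the 4 control columns held 2054614, 1375952, 1867275 and 2954397, each in the order of columns 1 to 4 that all values below follow. The columns are numbered by their order in the table and carry no other meaning. APRIL column 3 was the shallowest and stood apart, being the highest of the 8 libraries in 33.6% of all genes and the lowest in 32.9%. Control column 1 was the highest in 26.3% and the lowest in 25.7%. Of 10 markers of a monocytic line 9 were in the table, with differences from -0.26 ± 0.21 for ITGAX through 0.02 ± 0.13 for CD33 to 0.60 ± 0.30 for CD14 and a median of 0.13. With the length and GC trends removed that median was -0.19. Of markers of other cells the table held 3 of 6 for B and plasma cells, 1 of 5 for T and NK cells (NKG7, with a difference of 0.46 ± 0.25 that was 0.16 without APRIL column 3), 1 of 7 for hepatocytes and adipocytes, and 0 of 4 each for erythroid cells and for fibroblasts and endothelium. In bulk RNA a change in the mix of cell states and a change in RNA per cell cannot be told apart. The level of a gene is read only against the same gene in other libraries, since the constant by which the deposited values of each gene were divided is not known to be its length.

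**Figure D1:**
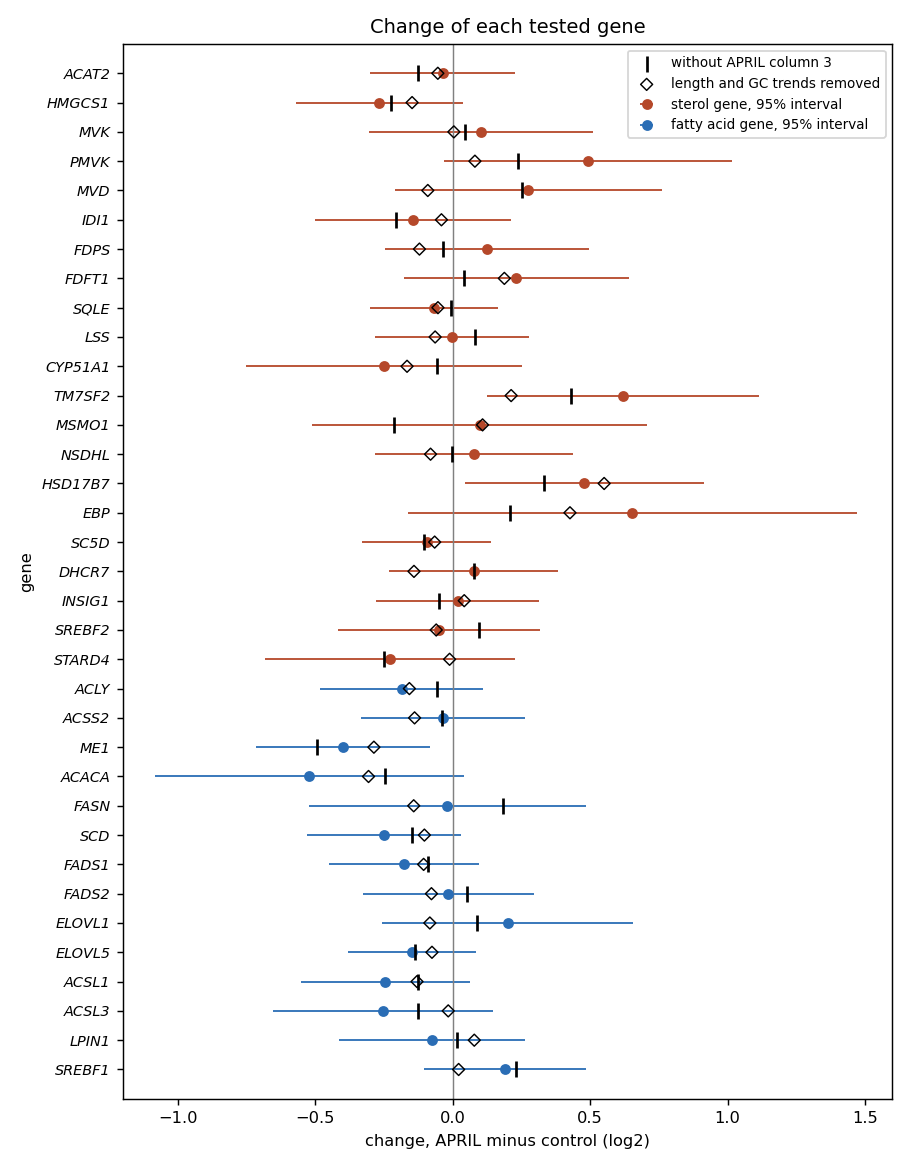
Difference between APRIL and control on the log2 scale for the 35 tested members, with 95% intervals from limma over 4 libraries a group; red marks sterol genes, blue fatty acid genes, black ticks the difference without APRIL column 3 and open diamonds that with the length and GC trends removed. Intervals clear of 0 are those of TM7SF2, HSD17B7 and ME1, and no member had an adjusted p under 0.05.

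For the regulators of the pathway no difference between the groups was resolved. SREBF2 had log2 values, the scale of all levels below, of 10.10, 10.06, 9.51 and 10.12 with APRIL and of 9.71, 10.19, 10.13 and 9.96 in controls. The groups overlapped, with the lowest value in APRIL column 3. The difference was -0.05 ± 0.17, with a 95% interval of -0.42 to 0.32. SREBF1 lay between 7.85 and 8.10 in the APRIL libraries, and at 7.51, 8.01, 7.78 and 7.82 in the control libraries. Control column 2 was inside the APRIL range and the other 3 control libraries were below it. The difference was 0.19 ± 0.13, with a 95% interval of -0.11 to 0.48 (adjusted p = 0.468 by limma). It was 0.02 ± 0.07 with the length and GC trends removed. INSIG1, whose transcript is itself a sensitive SREBP target, stood at 4.37, 4.28, 4.57 and 4.27 with APRIL and at 4.47, 4.42, 4.31 and 4.22 in controls. The groups overlapped closely. With 231 to 1202 reads in the APRIL libraries and 338 to 637 in the control libraries, its difference was 0.02 ± 0.13, with a 95% interval of -0.28 to 0.31. STARD4, a carrier of cholesterol between membranes, differed by -0.23 ± 0.20 and by -0.03 without control column 1, where it was highest at 6.74.

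Letters like the sterol regulatory element, the sequence that SREBPs bind, were sought in the 250 bases before the RefSeq start sites (GRCh38.p14), on both strands. Promoters were at hand for 32 of the 36 members, with 48 start sites. ACAT2, FASN, FDFT1 and SQLE had none at hand and were not searched. The letters TCACNCNAC were in 6 of 48 member promoters (12.5%) and in 2.02% of all 35116 promoters. The 6 stretches are shown because they are the places where letters like that element can be set beside the measured differences. Capitals mark the SRE-like letters, or their reverse complement in ACSL1, and the CCAAT box, which is read on the other strand as ATTGG. No SRE-like match overlapped a CCAAT box.
SREBF2: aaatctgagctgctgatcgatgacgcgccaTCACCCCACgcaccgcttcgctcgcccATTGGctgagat
FDPS: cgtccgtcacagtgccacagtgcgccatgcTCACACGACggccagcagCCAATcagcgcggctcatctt
HSD17B7: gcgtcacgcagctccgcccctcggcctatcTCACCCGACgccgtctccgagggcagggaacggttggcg
ACSS2: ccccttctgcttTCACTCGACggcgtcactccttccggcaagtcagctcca
FADS2: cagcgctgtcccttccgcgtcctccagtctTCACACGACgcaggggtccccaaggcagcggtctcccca
ACSL1: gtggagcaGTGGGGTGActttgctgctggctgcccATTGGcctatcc
The stretches lie at chr22:41832942-41833010, chr1:155308696-155308764, chr1:162790574-162790642, chr20:34876362-34876412 and chr11:61815953-61816021 on the plus strand, and at chr4:184805757-184805803 on the minus strand. The differences of these genes with APRIL were -0.05 for SREBF2, 0.12 for FDPS, 0.48 for HSD17B7, -0.04 for ACSS2, -0.02 for FADS2 and -0.25 for ACSL1, so they lay on both sides of 0. CCAAT was found in 58.3% of member promoters and in 32% of all promoters. The GC box letters GGGCGG were found in 81.2% of member promoters and in 42.6% of all. The promoters of the comparison were not limited to genes in the expression table, and several start sites of the same gene each counted. A match of letters is not a site shown to be bound.

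The 7 genes of the mevalonate steps, from acetyl-CoA to farnesyl diphosphate, had a median difference of 0.10, with 4 higher and 3 lower means. HMGCS1, which makes HMG-CoA, stood at 5.19, 5.37, 5.03 and 5.06 in APRIL libraries, against 5.60, 5.36, 5.49 and 5.27 in control libraries. APRIL column 2 was the only APRIL library inside the control range. The difference was -0.27 ± 0.14 (adjusted p = 0.40 by limma), and it was -0.15 ± 0.09 with the trends removed. PMVK, which phosphorylates mevalonate phosphate, was at 7.62, 7.42, 8.63 and 7.79 with APRIL and at 7.29, 7.21, 7.43 and 7.58 in controls. Its highest value lay in APRIL column 3, which rested on 158 reads. The difference of 0.49 ± 0.24 was 0.24 without that library and 0.08 ± 0.13 with the trends removed.

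MVD, which makes isopentenyl diphosphate, was set by 1 control library. It stood at 6.02, 5.69, 6.04 and 6.15 in APRIL libraries, against 5.02, 5.93, 5.91 and 5.94 in control libraries, and its difference of 0.27 ± 0.22 was 0.05 without control column 1. FDPS, the farnesyl diphosphate synthase, was at 7.10, 7.01, 7.74 and 7.20 with APRIL and at 7.01, 7.08, 7.28 and 7.18 in controls. Apart from APRIL column 3 its values lay within the control range or at its edge, and its difference of 0.12 ± 0.17 turned to -0.03 without that library. MVK, the mevalonate kinase, differed by 0.10 ± 0.18. ACAT2, the cytosolic thiolase that opens the pathway, differed by -0.04 ± 0.12, and IDI1, the isopentenyl diphosphate isomerase, by -0.14 ± 0.16.

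The 11 genes from squalene to cholesterol had a median difference of 0.08, with 7 higher and 4 lower means, and held the 2 highest differences, those of EBP and TM7SF2. TM7SF2, a sterol C14 reductase, stood at 7.08, 7.08, 7.95 and 7.41 in APRIL libraries, against 6.38, 7.13, 6.71 and 6.83 in control libraries. The groups overlapped through control column 2 alone. The difference was 0.62 ± 0.22, or 1.54-fold, with an adjusted p of 0.40 by limma. Leaving out APRIL column 3 gave 0.43, and leaving out control column 1 gave 0.49. Removing the length and GC trends gave 0.21 ± 0.12. The reads behind it were 178, 335, 96 and 249 with APRIL and 79, 88, 90 and 156 in controls.

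HSD17B7, the sterol 3-ketoreductase, was the member whose 4 APRIL libraries all lay above its 4 control libraries. It stood at 1.58, 1.78, 2.28 and 1.70 with APRIL and at 1.19, 1.39, 1.44 and 1.41 in controls. The reads were few, 69, 151, 33 and 84 with APRIL and 38, 29, 41 and 64 in controls. The difference was 0.48 ± 0.20 (adjusted p = 0.40 by limma), it ran from 0.33 to 0.56 with single libraries left out, and it was 0.55 ± 0.18 with the trends removed. Copies nearly identical to this gene exist in the genome, so its count is uncertain.

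EBP, the sterol isomerase, had the highest difference of all members and owed most of it to 1 library. It stood at 6.32, 6.14, 8.07 and 6.38 in APRIL libraries, against 5.89, 6.13, 6.05 and 6.22 in control libraries. The difference of 0.65 ± 0.37 was 0.21 without APRIL column 3. MSMO1, a sterol C4 demethylase, was at 6.31, 6.29, 7.52 and 6.20 with APRIL and at 6.76, 6.31, 6.46 and 6.41 in controls. It differed by 0.10 ± 0.27 over all libraries and by -0.22 without APRIL column 3. FDFT1, the squalene synthase, stood at 11.33, 11.20, 12.02 and 11.26 with APRIL and at 10.99, 11.19, 11.32 and 11.37 in controls. Here too the top value was that of APRIL column 3, and the difference of 0.23 ± 0.18 was 0.04 without it.

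CYP51A1, the lanosterol 14-demethylase, went the other way in the same library. It stood at 3.66, 3.71, 2.93 and 3.73 in APRIL libraries, against 3.34, 4.04, 3.76 and 3.90 in control libraries. Its difference was -0.25 ± 0.23, and -0.06 without APRIL column 3. The other members of these steps lay close to 0: SQLE, the squalene epoxidase, at -0.07 ± 0.10, LSS, the lanosterol synthase, at -0.0037 ± 0.13, and NSDHL, a C4 decarboxylating dehydrogenase, at 0.08 ± 0.16. SC5D, the lathosterol oxidase, differed by -0.10 ± 0.11 and DHCR7, which makes cholesterol from 7-dehydrocholesterol, by 0.08 ± 0.14.

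**Figure D2:**
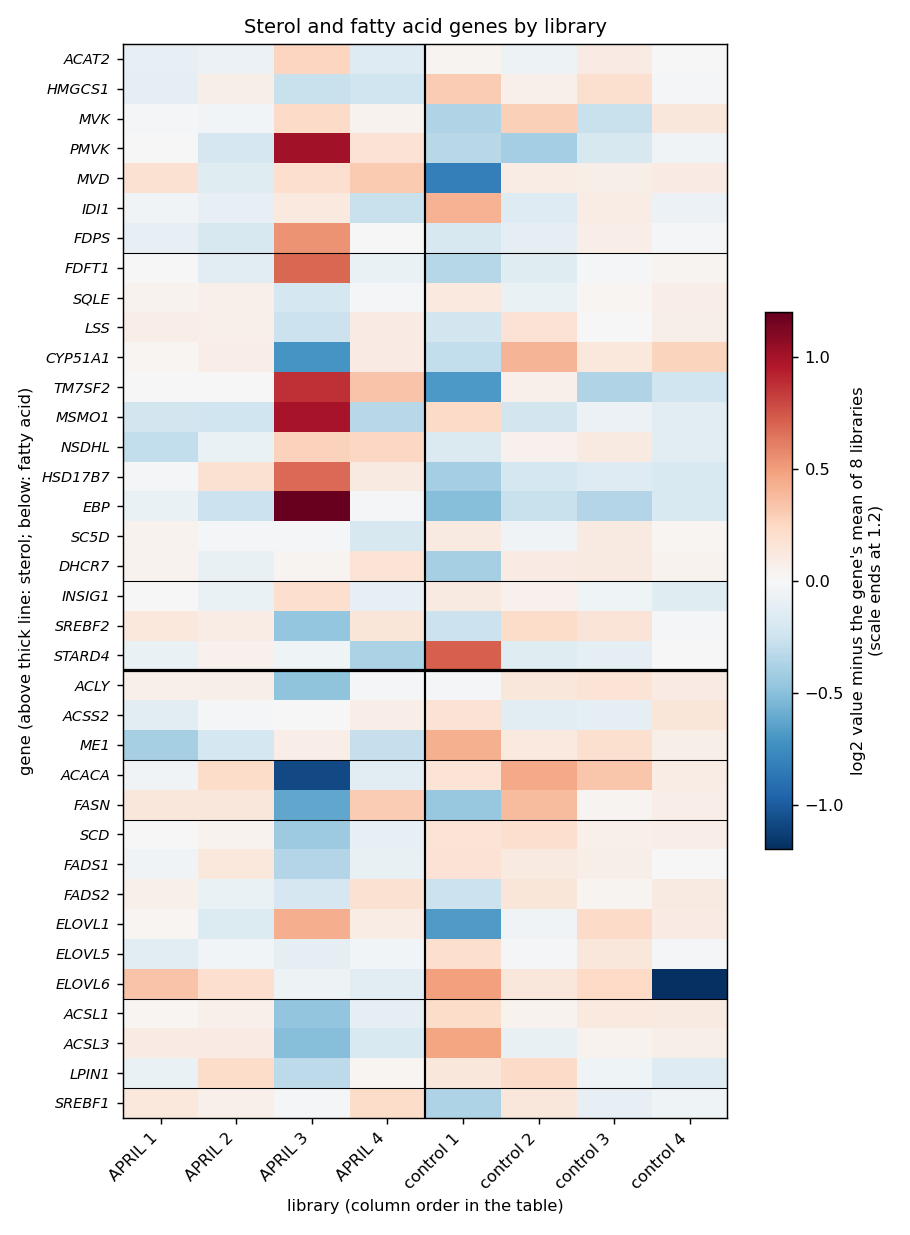
Each member's log2 value in each library as a deviation from the mean of the gene over all 8 libraries, APRIL columns 1 to 4 on the left and control columns 1 to 4 on the right, with colours ending at the limits of the scale. Far from their gene means lie EBP at 8.07 and ACACA at 5.07 in APRIL column 3, and ELOVL6, which has few reads, at -1.60 in control column 4.

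Among the fatty acid genes the 3 that supply acetyl-CoA and NADPH had a median difference of -0.19, all 3 with lower means. ME1, the cytosolic malic enzyme that yields NADPH, stood at 6.10, 6.29, 6.58 and 6.22 in APRIL libraries, against 6.92, 6.61, 6.69 and 6.57 in control libraries. Only APRIL column 3 reached the control range, and it passed control column 4 alone. The difference was -0.40 ± 0.14, or 0.758-fold, with a 95% interval of -0.72 to -0.08 and an adjusted p of 0.40 by limma. It held between -0.49 and -0.33 with single libraries left out and was -0.29 ± 0.10 with the trends removed. The reads were 76, 164, 31 and 92 with APRIL and 97, 52, 75 and 110 in controls. ACLY, which makes acetyl-CoA from citrate, differed by -0.19 ± 0.13 and by -0.06 without APRIL column 3. ACSS2, which makes it from acetate, differed by -0.04 ± 0.13.

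ACACA, the acetyl-CoA carboxylase that makes malonyl-CoA, had the lowest difference of all members. It stood at 6.11, 6.38, 5.07 and 6.02 with APRIL and at 6.32, 6.61, 6.49 and 6.25 in controls. APRIL column 2 lay inside the control range, and APRIL column 3, with 62 reads, lay far below the other APRIL libraries. The difference was -0.52 ± 0.25, or 0.696-fold, with an adjusted p of 0.40 by limma, and it was -0.25 without APRIL column 3. FASN, the fatty acid synthase, was at 10.36, 10.36, 9.60 and 10.53 in APRIL libraries, against 9.77, 10.60, 10.25 and 10.30 in control libraries. Both groups held 1 low library, and the difference was -0.02 ± 0.23.

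The 5 tested desaturases and elongases had a median difference of -0.15, with 1 higher and 4 lower means. SCD, which puts the first double bond into stearate and palmitate, stood at 9.89, 9.93, 9.45 and 9.79 in APRIL libraries, against 10.05, 10.09, 9.95 and 9.97 in control libraries. All 4 APRIL libraries lay below all 4 control libraries. The difference was -0.25 ± 0.13 (adjusted p = 0.40 by limma), and it came to -0.15 when APRIL column 3 was left out and to -0.10 ± 0.06 when the trends were removed. A processed pseudogene of SCD resembles it closely, so reads may have been split between the pair. ELOVL5, an elongase of polyunsaturated fatty acids, also had no overlap, at 8.92, 9.02, 8.94 and 9.02 with APRIL and at 9.25, 9.03, 9.18 and 9.03 in controls. The gap between its nearest libraries was within rounding of these values, and the difference was -0.15 ± 0.11.

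**Figure D3:**
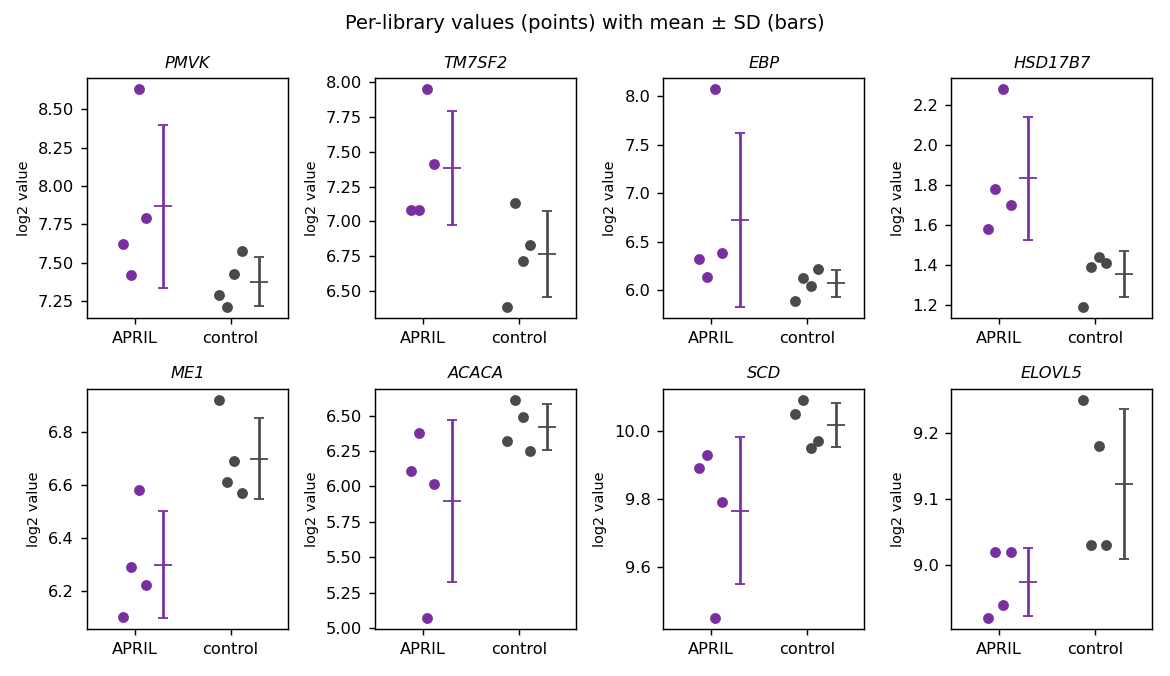
Log2 values of single members by library, APRIL on the left of each panel and control on the right, with the mean and SD over 4 libraries as bars. HSD17B7, SCD and, by a very small gap, ELOVL5 show no overlap between groups, while EBP and ACACA have APRIL column 3 far from the other APRIL libraries.

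FADS1, the delta-5 desaturase, differed by -0.18 ± 0.12 and FADS2, the delta-6 desaturase, by -0.02 ± 0.14. ELOVL1, an elongase of saturated very long chains, differed by 0.20 ± 0.21, and by 0.0064 without control column 1. ELOVL6, which lengthens palmitate, was under the floor of the test. It had 15, 26, 3 and 12 reads in APRIL libraries and 12, 6, 9 and 5 reads in control libraries, too few to resolve a difference. The long-chain acyl-CoA ligases ACSL1 and ACSL3 differed by -0.25 ± 0.14 and -0.25 ± 0.18, with APRIL column 3 the lowest library for both. Leaving that library out gave -0.13 for each, and removing the trends gave -0.13 for ACSL1 and -0.02 for ACSL3. LPIN1, a phosphatidate phosphatase, differed by -0.08 ± 0.15.

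The p-value in the authors' deposited table was under 0.05 for 3 members, ME1 at 0.0196, HSD17B7 at 0.0266 and HMGCS1 at 0.0452, and for 8.52% of all genes. That p is not adjusted for the number of genes.

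Averaged over the genes of a set, the libraries showed where the lean of each set lay. The mean deviation of the 21 sterol genes from their gene means was -0.03, -0.05, 0.28 and -0.0025 with APRIL, and -0.14, -0.02, -0.02 and -0.02 in controls. Apart from column 3, each APRIL library lay within the control range or just above it. For the 14 fatty acid genes it was -0.02, 0.04, -0.29 and -0.0011 with APRIL and 0.03, 0.12, 0.08 and 0.05 in controls. The lowest was again APRIL column 3, and APRIL column 2 overlapped the lowest control library. As group means the sterol set stood at 0.05 ± 0.15 with APRIL and -0.05 ± 0.06 in controls, and the fatty acid set at -0.07 ± 0.15 with APRIL and 0.07 ± 0.04 in controls (SD, n = 4 each). All tested genes together lay between -0.02 and 0.02 in every library.

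APRIL column 3 was the highest library for 10 of 21 sterol genes and the lowest for 5, and the lowest for 8 of 14 fatty acid genes and the highest for 1. Without it 10 of 21 sterol genes had a higher mean with APRIL, with a median of -0.0033, and 5 of 14 fatty acid genes did, with a median of -0.075. Without control column 1 the sterol median was 0.0016 and the fatty acid median -0.14. With both left out 7 of 21 sterol genes were higher, with a median of -0.043, and 4 of 14 fatty acid genes, with a median of -0.079. The part of its low depth in these values was not tested.

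**Figure D4:**
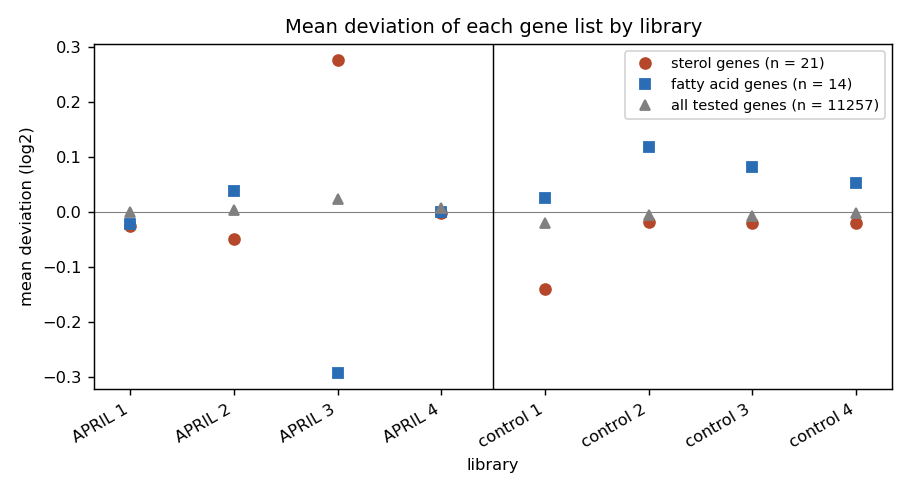
Mean deviation of the sterol genes, the fatty acid genes and all tested genes from their gene means, on the log2 scale, in each library, APRIL columns on the left and control columns on the right. APRIL column 3 is the library where the sets lie farthest apart, with 0.28 for the sterol genes and -0.29 for the fatty acid genes.

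The sets differ in transcript length, and differences across all genes followed length and GC content. The median longest transcript (GENCODE 29) was 2961 bases for the sterol genes, 4589 for the fatty acid genes and 3632 for all genes, and the median GC content was 50.2%, 49.4% and 47.9%. Across 10791 genes the difference had a Spearman's rho of -0.54 with length and 0.51 with GC content. Across the 35 members rho was -0.62 and 0.61. These points share the same 8 libraries and are not independent.

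The members were set beside all genes of like length and GC content. Of the 11 members shorter and richer in GC than the median gene, among them TM7SF2, EBP and PMVK, 9 had a higher mean with APRIL, with a median of 0.20 beside 0.25 for the 3254 such genes. The 9 long members rich in GC, such as FASN and SREBF2, had a median of -0.02, as did the 2141 such genes. The 10 short members with lower GC content, HSD17B7 and ME1 among them, had a median of -0.12 beside -0.0077 for 2140 genes, and HSD17B7, at 0.48, and ME1, at -0.40, lay far to either side of it. The 5 long members with lower GC content, STARD4, SCD, ACSL1, ACSL3 and LPIN1, all had lower means, with a median of -0.25 beside -0.22 for 3256 genes. With the trends removed 8 of 21 sterol genes had a higher mean, with a median of -0.054, and 2 of 14 fatty acid genes did, with a median of -0.10. The mean deviation of the fatty acid set was then -0.03, -0.0025, -0.16 and -0.03 in the APRIL libraries. In the control libraries it was 0.05, 0.07, 0.07 and 0.03. These groups did not overlap, while with the trends kept APRIL column 2 lay inside the control range at 0.04. The members were chosen with results known, and whether other lists separate likewise was not tested.

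**Figure D5:**
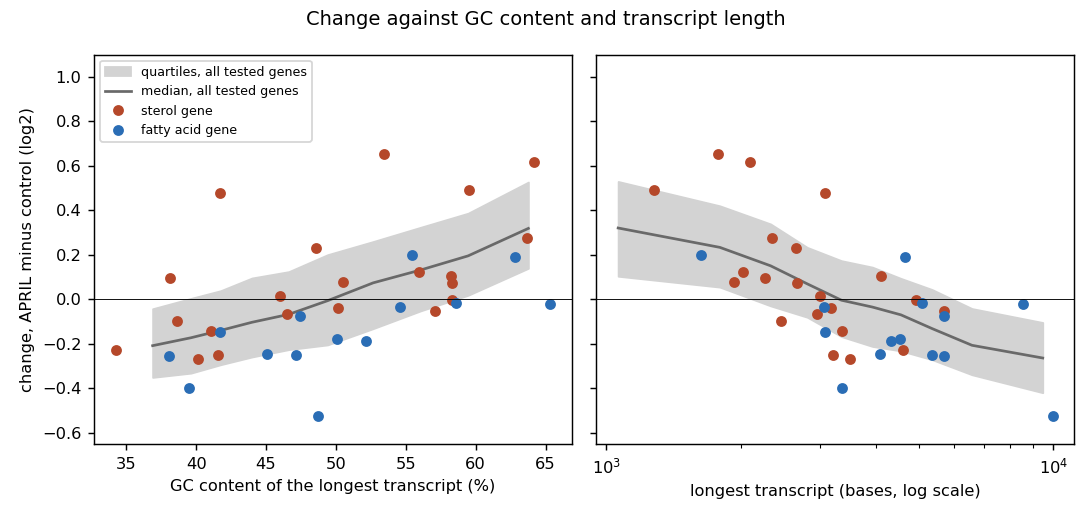
Difference between APRIL and control (log2) against GC content in percent and against longest transcript in bases (log axis), with red points for sterol genes, blue points for fatty acid genes, and the median and quartiles of all tested genes as a line and a band. Most members lie in or near the band. For their GC content HSD17B7, at 0.48, and EBP, at 0.65, lie well above it, and ACACA, at -0.52, lies well below it.

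Genes around the pathway gave no call either. Of 11 tested genes of SREBP processing and turnover, such as the escort protein and the proteases, 5 had a higher and 6 a lower mean, with a median of -0.02. C12orf49, which helps to mature the site-1 protease, differed by 0.21 ± 0.13 and UBE2G2, a ubiquitin-conjugating enzyme of the endoplasmic reticulum, by -0.22 ± 0.12. Removing the trends gave 0.42 for C12orf49 and -0.11 for UBE2G2. The 8 other sterol synthesis genes had 4 higher and 4 lower means. Among them LBR, another sterol C14 reductase, differed by -0.24 ± 0.11 with no overlap between the groups, and POR, the reductase that serves CYP51A1 and squalene epoxidase, by 0.41 ± 0.19. With the trends removed these were -0.09 for LBR and 0.12 for POR. The 15 genes of the isoprenoid branch had 8 higher and 7 lower means and a median of 0.0038. FNTB, a farnesyltransferase subunit, differed by 0.39 ± 0.18, and RCE1, a protease for prenylated proteins, by 0.43 ± 0.21. With the trends removed these were 0.27 for FNTB and 0.12 for RCE1.

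Of 16 genes of sterol uptake and trafficking 11 had a lower mean, with a median of -0.14. That median was -0.05 with the trends removed and -0.02 without APRIL column 3. SOAT1, which esterifies cholesterol for storage, averaged 7.98 ± 0.05 with APRIL and 8.30 ± 0.14 in controls (SD, n = 4 each) with no overlap, a difference of -0.31 ± 0.11 that was -0.06 with the trends removed. LRP8, a lipoprotein receptor, differed by -0.25 ± 0.14, and by -0.05 with the trends removed. Of 8 LXR and efflux genes 6 had a higher mean, with a median of 0.37 that was 0.09 with the trends removed. APOE, an apolipoprotein induced by LXR, differed by 0.69 ± 0.22 with no overlap and by 0.07 with the trends removed, and NR1H2, which encodes an LXR, by 0.41 ± 0.19, against 0.10 with the trends removed. The lowest APRIL value of APOE, 5.89, was just above its highest control value, 5.86.

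The 20 other fatty acid synthesis genes did not share the lean of the fatty acid set, with 13 higher and 7 lower means and a median of 0.15. The median of 0.15 was 0.07 with the trends removed and 0.07 without APRIL column 3. Their median longest transcript was 3164.5 bases, against 4589 for the fatty acid set. ACOT7, an acyl-CoA thioesterase, differed by 0.69 ± 0.22, and ACSL4, a ligase for arachidonate, by -0.36 ± 0.15 with no overlap. With the trends removed these were 0.37 for ACOT7 and -0.13 for ACSL4. The 20 tested genes of glycerolipid and phospholipid synthesis had 10 higher and 10 lower means. PCYT2, of the ethanolamine pathway, differed by 0.43 ± 0.17 with no overlap, and AGPAT2, an acyltransferase of phosphatidate synthesis, by 0.61 ± 0.26. Without APRIL column 3 these were 0.28 for PCYT2 and 0.35 for AGPAT2, and removing the trends gave 0.24 for PCYT2 and 0.09 for AGPAT2. The nearest APRIL and control values were 10.35 and 10.34 for PCYT2, and 4.05 and 4.06 for ACSL4, so these groups were barely apart. Of 23 fatty acid oxidation genes 13 had a higher and 10 a lower mean. ACAA1, the peroxisomal thiolase, differed by 0.36 ± 0.13, and ACADM, the medium-chain dehydrogenase, by -0.27 ± 0.12 with no overlap. Removing the trends gave 0.45 for ACAA1 and -0.24 for ACADM.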

How the data were processed

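The authors deposited 1 table with a value per gene and library after TMM scaling, per the file headers. The values run from -4.96 to 15.4. The log2 of the deposited fold equals the difference of means in these values, as for TM7SF2 (1.54-fold and 0.62), so the values are log2. Per the file headers further columns deposited by the authors hold a p-value per gene without adjustment and the fold of APRIL over control. The authors also gave the log10 of that p and a score, its negative log10 with the sign of the fold, per the file headers, neither used here. The p-value was missing for 4 genes. Per the submitters' processing notes TopHat2 2.0.13, bcl2fastq and build hg19 were used. The sources used here do not give the read counter, annotation or filter. Per the labels' protocols libraries were made with TruSeq RNA v2, which does not mark strand. The symbols of 11 genes had become dates. All 8 columns were used.

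Whole reads were recovered for 11159 of 11530 genes (96.8%), from values that are log2 of whole reads plus a constant over 1 divisor per gene, and for 1 of 500 genes with the constants moved. They were recovered for 30 members, not for FDFT1, SQLE, LSS, SREBF2, ACLY and FASN, and served for depth and 2 alternatives. Each gene was tested with limma 3.58.1 (R 4.3.3), with intensity trend and robust empirical Bayes, two-sided, Benjamini-Hochberg adjustment, on the 11257 genes whose unlogged value reached 1 in 4 libraries. Length and GC content of the longest transcript were found for 11034 genes. Their trends were removed per library by splines with 4 degrees of freedom. Python 3.11.15, pandas 2.3.3, scipy 1.17.1 and matplotlib 3.10.9 did the rest. The fit was tested on simulated data with independent noise for each gene. That simulation held no length or GC trends and no outlying library, so it does not bear on these. The members and lists were chosen with earlier results of these data known. Every member present is accounted for, and of each other list the 2 tested genes with the smallest p are named.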

Additional observations from a re-analysis of the deposited data

Results flagged for a closer look

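In 9 of 72 groups of 4 values, a member's highest or lowest library stood apart from the others by more of the group's range than Dixon's gap test allows at 95%. Chance flags about 1 in 20 groups, and over all genes 9.38% of groups stood out in this way. APRIL column 3 was the library in 7 of the 36 APRIL groups of members and in 9.92% of those of all genes. Control column 1 was the library in 2 of the 36 control groups of members and in 4.94% of those of all genes. On the log2 scale APRIL column 3 was high for FDFT1 at 12.02, MSMO1 at 7.52 and EBP at 8.07. It was low for LSS at 10.92, CYP51A1 at 2.93, SREBF2 at 9.51 and ACLY at 12.02. Control column 1 was low for MVD at 5.02 and for DHCR7 at 8.31. APRIL column 3 was also the shallowest library, with 929816 recovered reads.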

How the results depend on the processing

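No paired analysis was possible because the column headers carry no replicate number. Values are differences of log2 means unless said otherwise. The count of genes called was 0 in every setting except library quality weights, which gave 4. The members at an unadjusted p under 0.05 numbered 3, but 5 of 29 with recovered reads and a prior count of 2, 2 of 33 with the stricter filter on low values, 2 with the length and GC trends removed, 1 without APRIL column 3 and control column 1, and from 1 (without control column 1) to 6 (without APRIL column 2) with single libraries left out. The sterol median of 0.08 was -0.054 with the trends removed, -0.011 with quality weights, 0.017 with the stricter filter, -0.043 with both libraries left out, and -0.0033 to 0.11 with single libraries left out. The fatty acid median of -0.16 was -0.080 with quality weights, -0.10 with the trends removed and -0.079 with both libraries left out. The gap of 0.24 was then 0.070, 0.051 and 0.036, and 0.18 with the stricter filter. The fatty acid median ran from -0.20 to -0.075 and the gap between the sets from 0.072 to 0.32 with single libraries left out. The sign was kept in 495 of 546 recomputed member differences, and 18 members kept it in all 16 alternatives. Part of these counts was fixed in advance. The filters on low values leave each difference of means as it was, and centring the library medians shifts all differences by the same small amount. The sign turned for 10 members with quality weights, 6 with the trends removed, 9 without APRIL column 3 and 13 with both libraries left out. With quality weights it turned for MVK (-0.023), FDPS (-0.071), LSS (0.029), MSMO1 (-0.12), NSDHL (-0.15), DHCR7 (-0.011), SREBF2 (0.043), FASN (0.059), ELOVL1 (-0.050) and LPIN1 (0.0078). With the trends removed it turned for MVD (-0.091), FDPS (-0.12), NSDHL (-0.081), DHCR7 (-0.14), ELOVL1 (-0.084) and LPIN1 (0.078). Without APRIL column 3 and control column 1 it turned for MVK (-0.058), FDPS (-0.077), FDFT1 (-0.035), SQLE (0.021), LSS (0.0057), MSMO1 (-0.12), NSDHL (-0.048), DHCR7 (-0.043), INSIG1 (-0.012), ACSS2 (0.013), FASN (0.032), ELOVL1 (-0.11) and LPIN1 (0.049). With single libraries left out the ranges that cross 0 were -0.13 to 0.0079 for ACAT2, -0.034 to 0.21 for FDPS, -0.078 to 0.080 for LSS, -0.22 to 0.22 for MSMO1, -0.0033 to 0.19 for NSDHL, -0.044 to 0.12 for DHCR7, -0.049 to 0.055 for INSIG1, -0.15 to 0.094 for SREBF2, -0.086 to 0.017 for ACSS2, -0.17 to 0.18 for FASN, -0.10 to 0.050 for FADS2 and -0.16 to 0.016 for LPIN1. The cause of these turns was not tested. Depth limits the genes with few reads, such as ELOVL6 and HSD17B7, most in APRIL column 3, where the median gene had 40 reads.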
